A study of Mus musculus with 12 samples.

Results

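The 30 genes described here make, sense and move cholesterol. They were taken by symbol from a fixed list, out of 35688 genes in the deposited table, and all 30 were found. By role, 7 belong to the mevalonate arm, 11 to the squalene and sterol arm, 5 to the SREBP switch and 7 to sterol transport. RNA came from the full-thickness colon of mice at 2 weeks of age. One group carried a homozygous deletion of Il10, which encodes an anti-inflammatory cytokine (Il10-/-, 5 libraries), and the other lacked Il10 and also Tnfr1, the gene for TNF receptor 1 (Il10-/- Tnfr1-/-, 6 libraries). Loss of Il10 was therefore common to both groups, and no colon with intact Il10 was analysed. The question the comparison addresses is what removal of TNF receptor 1 does to early-life colitis in Il10-/- mice.

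Cholesterol is built from acetyl-CoA. The mevalonate arm makes isoprenoid units, squalene synthase commits them to sterols, and the squalene and sterol arm closes and trims the rings. SREBP2, encoded by Srebf2, is a membrane-bound transcription factor that is carried by SCAP to the Golgi and cut there when sterols are low. INSIG proteins hold SCAP in the endoplasmic reticulum when sterols are plentiful. Genes of synthesis and uptake are known targets of SREBP2, whereas LXR receptors drive the efflux pumps when sterols are high. In the intestine NPC1L1 takes up sterol from the lumen and ABCG5 with ABCG8 return it.

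Promoter sequences are shown because the text below describes how these genes vary together. RefSeq entries on the GRCm38.p6 build matched 25 of the 30 genes, and the 250 bases before the start were searched on both strands for 3 motifs, with capitals marking every match. The motifs were TCACNCCAC, a form of the sterol element that SREBP binds, CCAAT, the NF-Y box, and GGGCGG, the Sp1 box. The 4 enzymes shown are those, among enzymes with an entry, of highest mean correlation with the other enzymes, and Npc1l1 is shown for contrast. The windows are chr5:4104698-4104947 on the minus strand for Cyp51, chr13:119690101-119690350 on the plus strand for Hmgcs1, chr1:169969206-169969455 on the minus strand for Hsd17b7, chr8:64733579-64733828 on the minus strand for Msmo1 and chr11:6230246-6230495 on the minus strand for Npc1l1. Each is written 5′ to 3′ along its gene.
Cyp51: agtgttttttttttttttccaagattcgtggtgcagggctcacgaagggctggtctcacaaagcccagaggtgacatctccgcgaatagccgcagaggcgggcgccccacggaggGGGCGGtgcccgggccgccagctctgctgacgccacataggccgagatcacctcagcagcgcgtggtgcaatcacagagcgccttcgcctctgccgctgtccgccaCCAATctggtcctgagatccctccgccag
Hmgcs1: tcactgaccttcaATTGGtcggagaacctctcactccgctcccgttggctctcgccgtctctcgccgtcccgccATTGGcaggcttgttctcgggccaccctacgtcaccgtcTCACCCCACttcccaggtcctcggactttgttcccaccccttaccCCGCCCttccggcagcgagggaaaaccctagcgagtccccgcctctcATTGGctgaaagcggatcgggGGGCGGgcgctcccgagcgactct
Hsd17b7: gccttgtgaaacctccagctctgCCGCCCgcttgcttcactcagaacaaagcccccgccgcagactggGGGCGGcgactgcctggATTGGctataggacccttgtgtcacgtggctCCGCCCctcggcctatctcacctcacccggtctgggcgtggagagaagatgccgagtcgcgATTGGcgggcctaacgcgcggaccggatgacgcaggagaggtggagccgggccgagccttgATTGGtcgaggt
Msmo1: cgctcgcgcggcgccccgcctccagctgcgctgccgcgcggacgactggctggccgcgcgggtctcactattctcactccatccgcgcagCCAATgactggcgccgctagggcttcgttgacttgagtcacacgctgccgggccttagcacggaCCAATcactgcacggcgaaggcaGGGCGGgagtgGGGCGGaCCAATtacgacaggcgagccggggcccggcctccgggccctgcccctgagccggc
Npc1l1: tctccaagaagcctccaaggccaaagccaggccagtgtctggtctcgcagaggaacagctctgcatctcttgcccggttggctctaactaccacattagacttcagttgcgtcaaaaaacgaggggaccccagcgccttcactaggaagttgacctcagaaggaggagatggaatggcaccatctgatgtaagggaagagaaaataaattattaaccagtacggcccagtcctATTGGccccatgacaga

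The sterol element spelled TCACNCCAC was found in 1 of the 25 genes, Hmgcs1, as TCACCCCAC starting 137 bases before the start. It was present in 1.22% of the promoters of 27025 genes. CCAAT was found in 21 of the 25 against 37.5% of all genes, and the 4 without it were Abca1, Abcg5, Acat2 and Scap. GGGCGG was also found in 21 of the 25, against 35.4% of all genes, and was not found for Abcg5, Abcg8, Npc1l1 and Pmvk. Hmgcs1, Hsd17b7 and Msmo1 each held 3 CCAAT matches, whereas Cyp51 and Npc1l1 held 1 each. These are matches of letters only, and other spellings of the sterol element are not reported.

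Values are abundances per transcript length, scaled between libraries and summed per gene, so genes can be compared by level; read depth is not given by the table. Summed abundance per library ran from 804108 to 1378971. The deleted receptor gene, Tnfrsf1a, ran from 12.0 to 17.0 in Il10-/- Tnfr1-/- libraries and from 30.6 to 78.1 in Il10-/- libraries, without overlap. Il10 transcript was still listed in both groups (9.06 to 22.9 in Il10-/- and 3.27 to 7.23 in Il10-/- Tnfr1-/-), and which part of either gene was deleted is not stated. Counts of genes with the higher or lower mean refer throughout to the mean of log2(abundance + 0.5). On that scale 7521 of all 13561 tested genes had the higher mean in Il10-/- Tnfr1-/-, and 8.34% had an unadjusted limma p under 0.05. Of 15 epithelial markers 12 had the lower mean in Il10-/- Tnfr1-/- on that scale (1 at unadjusted p under 0.05 by limma), and their sum ran from 13240 to 27090 in Il10-/- and from 8716 to 60890 in Il10-/- Tnfr1-/-. All 10 smooth muscle markers had the higher mean in Il10-/- Tnfr1-/- (9 at unadjusted p under 0.05 by limma), with sums of 184 to 3505 against 828 to 8010. All 4 tested neutrophil markers had the lower mean there (3 at unadjusted p under 0.05), with sums over the 8 listed of 35.2 to 539 in Il10-/- and 5.88 to 98.6 in Il10-/- Tnfr1-/-. The part of tissue make-up in the sterol results was not tested except where a value is given, and in whole tissue fewer cells of a type and less RNA per cell cannot be told apart. Y-linked transcripts were near 0 in 2 of 5 Il10-/- and 1 of 6 Il10-/- Tnfr1-/- libraries, and the labels do not give litter or cage, so p-values measure only the spread between these samples.

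No sterol gene differed between genotypes by the adjusted test. Of the 30, 28 passed the filter on low values, and 0 of the 28 were called by limma with Benjamini-Hochberg adjustment over 13561 genes, where 0% of all genes were called. At an unadjusted p under 0.05 the count was 0 of 28, against 8.34% of all genes, and 0 of 28 had groups that did not overlap, against 0.575% of all genes. In Il10-/- Tnfr1-/- colon 16 had the higher mean and 12 the lower, against 7521 and 6040 of all 13561 genes. The 28 had a median log2 fold change of 0.13, against 0.05 for all genes tested. Log2 fold changes here are Il10-/- Tnfr1-/- minus Il10-/- on log2(abundance + 0.5), except those that the authors deposited. Single values ran from -0.55 for Mvk to 0.64 for Hsd17b7, with a median SE of 0.23. Adjusted p-values ran from 0.536 to 0.919 in limma. The 95% intervals were wide: for Hmgcs1 the interval ran from -0.17 to 1.43, on 11 libraries.

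**Figure D1:**
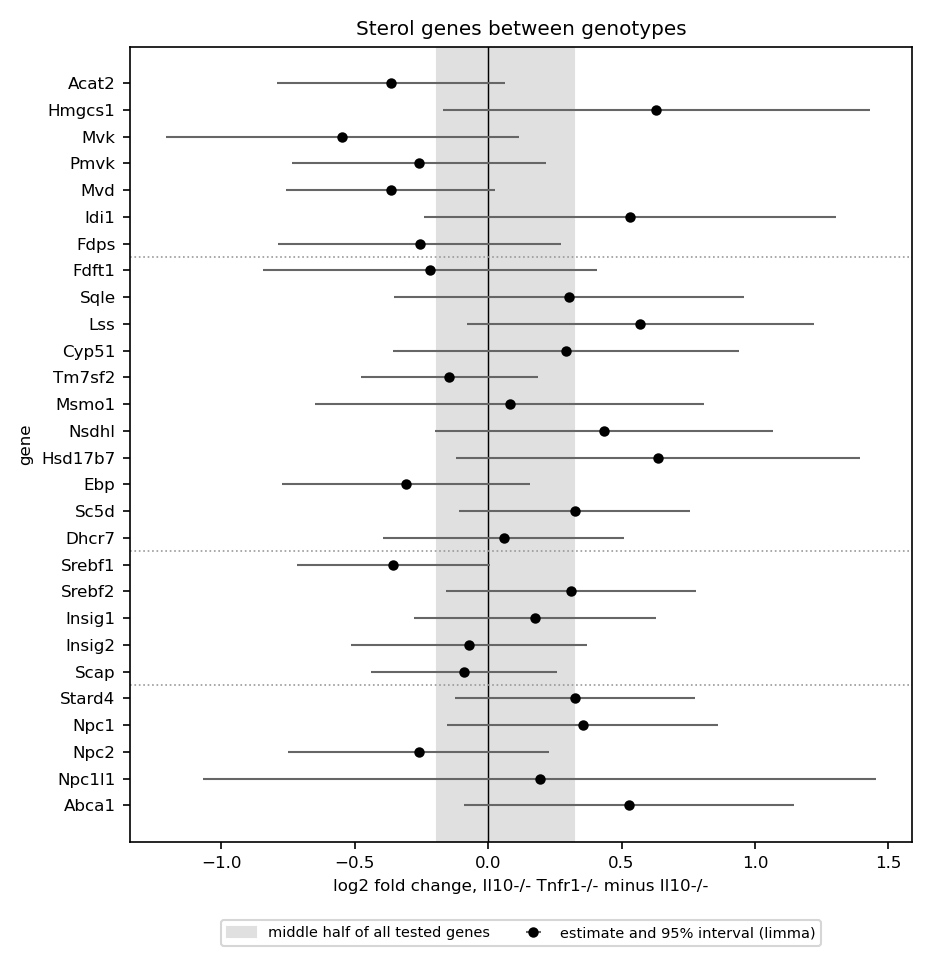
Log2 fold change (x axis, Il10-/- Tnfr1-/- minus Il10-/-) of the 28 tested sterol genes (y axis), with dotted lines between roles. Points are limma estimates, bars 95% intervals, and the grey band runs from the lower to the upper quartile of all 13561 tested genes, -0.19 to 0.32; every interval crosses 0.

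In the mevalonate arm, 2 of 7 genes had the higher mean in Il10-/- Tnfr1-/- and 5 the lower, with a median log2 fold change of -0.26. Hmgcs1, the enzyme that joins acetyl-CoA to acetoacetyl-CoA, measured 173, 76.0, 55.8, 60.3 and 51.1 in Il10-/- replicates 1, 2, 3, 5 and 6. It measured 93.0, 59.8, 108, 155, 112 and 226 in Il10-/- Tnfr1-/- replicates 1 to 6. Il10-/- replicate 1 lay above 5 of the 6 double-deficient libraries, while each other Il10-/- library lay below at least 5 of them. The log2 fold change was 0.63 (SE 0.37, n = 5 and 6, adjusted p = 0.537, limma). Idi1, which isomerises isopentenyl diphosphate, was likewise led by Il10-/- replicate 1, at 95.5, 40.8, 24.97, 26.9 and 17.6 in Il10-/-. In Il10-/- Tnfr1-/- it was 39.6, 38.1, 53.6, 65.7, 48.8 and 57.4. The SD was 31.5 in the first group and 10.6 in the second, and the log2 fold change was 0.53 (SE 0.36, adjusted p = 0.552, limma).

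Mvd and Acat2 had the smallest p-values of this arm, and both had lower means in Il10-/- Tnfr1-/-. Mvd, the mevalonate diphosphate decarboxylase, was 38.6, 22.6, 37.7, 29.7 and 40.0 in Il10-/- and 21.9, 22.7, 22.4, 27.2, 27.1 and 33.7 in Il10-/- Tnfr1-/-. Il10-/- replicates 2 and 5 lay within the range of the other group (log2 fold change -0.36, SE 0.18, adjusted p = 0.536, limma). Acat2, a cytosolic thiolase that makes acetoacetyl-CoA, was 43.9, 25.6, 31.1, 21.7 and 33.5 in Il10-/- and 18.1, 23.6, 24.6, 32.6, 22.4 and 21.6 in Il10-/- Tnfr1-/-. Its groups overlapped as well (log2 fold change -0.36, SE 0.20, adjusted p = 0.536, limma). Mvk and Pmvk, the successive mevalonate kinases, ran from 10.8 to 41.6 and from 31.6 to 71.6 over the 11 libraries. Fdps, which makes farnesyl diphosphate, ran from 64.5 to 168 and was the second most abundant of the 30 genes by mean.

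In the squalene and sterol arm, 8 of 11 genes had the higher mean in Il10-/- Tnfr1-/- and 3 the lower, with a median log2 fold change of 0.29. Sqle, the epoxidase that oxidises squalene, was 72.3, 33.7, 29.8, 27.6 and 34.2 in Il10-/- and 33.1, 30.03, 44.6, 58.3, 41.8 and 84.6 in Il10-/- Tnfr1-/-. Only Il10-/- replicate 1 of the first group stood above 35, and Il10-/- Tnfr1-/- replicates 4 and 6 led the second. The log2 fold change was 0.30 (SE 0.30, adjusted p = 0.648, limma). Lss, the cyclase that forms lanosterol, was 25.9, 20.01, 16.1, 14.4 and 9.74 in Il10-/- and 19.8, 18.3, 23.0, 38.0, 16.3 and 42.5 in Il10-/- Tnfr1-/-. Its 2 highest values were in Il10-/- Tnfr1-/- replicates 4 and 6 (log2 fold change 0.57, SE 0.30, adjusted p = 0.536, limma). Hsd17b7, a 3-ketosteroid reductase of the demethylation steps, was 9.42, 5.82, 3.85, 3.62 and 2.94 in Il10-/- and 5.91, 3.89, 9.58, 11.4, 5.54 and 13.4 in Il10-/- Tnfr1-/-. Its log2 fold change of 0.64 (SE 0.35, adjusted p = 0.536, limma) was the highest of the 28, with overlapping groups.

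The other 8 genes of this arm also overlapped between genotypes. Msmo1, the methyl sterol oxidase and the most abundant of the 30 genes, ran from 76.7 to 298, and its highest value lay in Il10-/- Tnfr1-/- replicate 6. Cyp51, the lanosterol demethylase, ran from 36.2 to 99.8, Nsdhl from 9.35 to 40.3 and Fdft1, the squalene synthase, from 31.5 to 91.1. The sterol isomerase gene Ebp ran from 71.6 to 158, and its 2 highest values were both in Il10-/- libraries, replicates 6 and 1. Tm7sf2, a sterol reductase, spanned only 19.5 to 31.0. Sc5d, the sterol desaturase, ran from 37.8 to 81.5 and Dhcr7, a late sterol reductase, from 23.9 to 52.0.

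**Figure D2:**
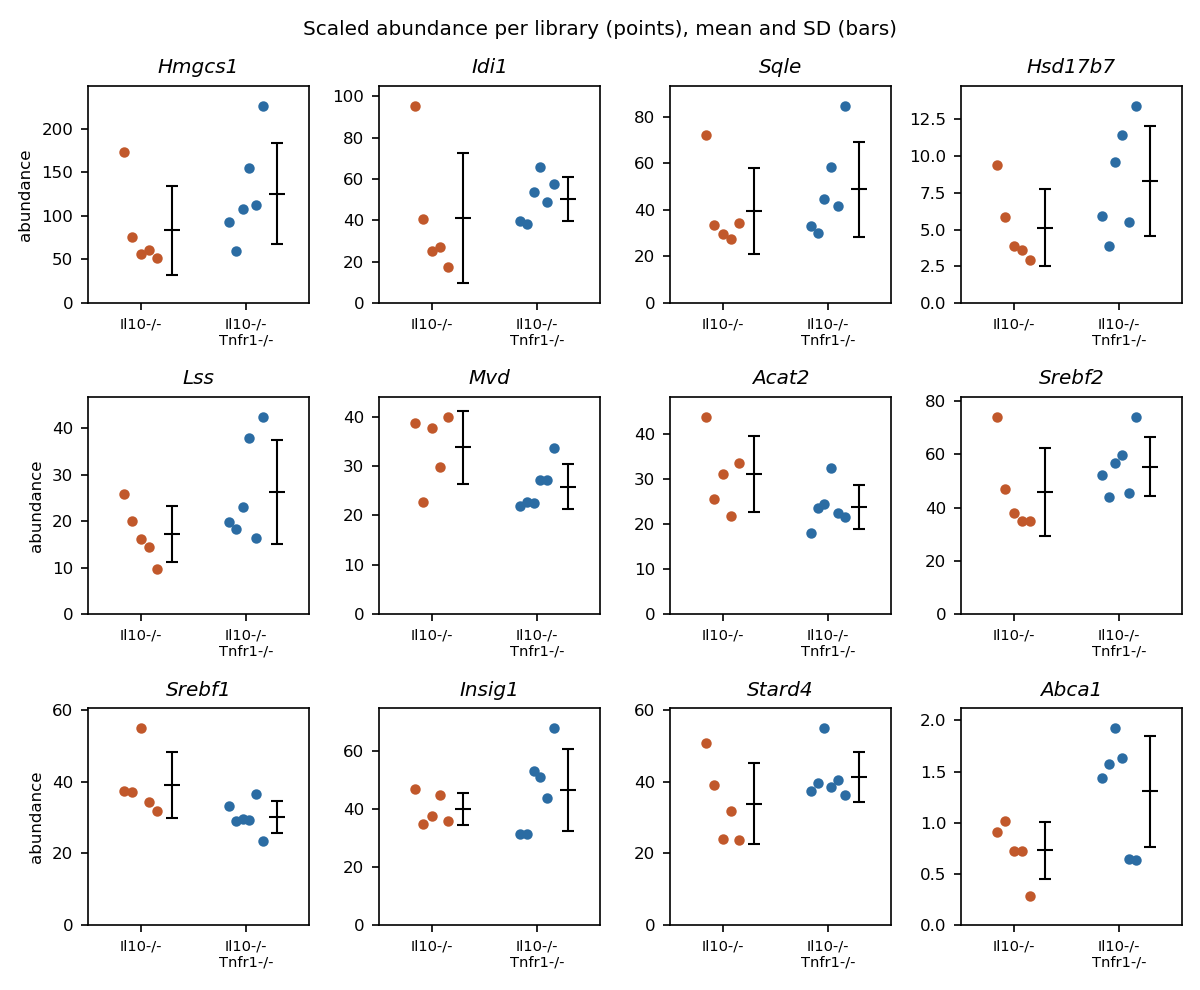
Scaled abundance (y axis, linear from 0) of 12 sterol genes in each library, by genotype (x axis), with the mean and SD as a bar beside the points (n = 5 and 6). In Hmgcs1, Idi1 and Sqle a single Il10-/- library, replicate 1, lies far above the other 4, and in Hmgcs1 and Sqle Il10-/- Tnfr1-/- replicate 6 is the highest library of all.

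Of the 5 genes of the SREBP switch 2 had the higher mean in Il10-/- Tnfr1-/- and 3 the lower, with a median log2 fold change of -0.07. Srebf2, which drives the pathway, was 74.2, 47.1, 37.9, 34.9 and 35.1 in Il10-/- and 52.3, 43.8, 56.8, 59.6, 45.6 and 74.2 in Il10-/- Tnfr1-/-. Il10-/- replicate 1 and Il10-/- Tnfr1-/- replicate 6 shared the highest value (log2 fold change 0.31, SE 0.22, adjusted p = 0.561, limma). Srebf1, which encodes the SREBP1 proteins best known for fatty acid genes, was 37.4, 37.3, 55.2, 34.4 and 32.0 in Il10-/- and 33.2, 29.1, 29.7, 29.4, 36.7 and 23.5 in Il10-/- Tnfr1-/-. It had the smallest limma p of the 28 (adjusted p = 0.536, log2 fold change -0.36, SE 0.17). An exact two-sided permutation test over the 462 assignments gave p = 0.0260 for Srebf1, the smallest of the 28 and unadjusted. The principal transcript of Srebf1 alone went the other way, with a log2 fold change of 0.505 (exact permutation p = 0.394, unadjusted). Insig1, itself a target of SREBP, was 46.8, 34.7, 37.5, 44.6 and 35.7 in Il10-/- and 31.4, 31.4, 53.2, 51.0, 43.9 and 67.9 in Il10-/- Tnfr1-/-. The SD was 5.47 and 14.0, and the double-deficient libraries lay both above and below all Il10-/- values (log2 fold change 0.17, SE 0.21, adjusted p = 0.707, limma). Insig2 ran from 18.8 to 40.0 and Scap from 11.9 to 19.5, each with a log2 fold change within 0.1 of 0.

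Of the 5 tested transport genes 4 had the higher mean in Il10-/- Tnfr1-/- and 1 the lower, with a median log2 fold change of 0.33. Stard4, a soluble sterol carrier, was 50.7, 39.2, 23.9, 31.8 and 23.8 in Il10-/- and 37.5, 39.7, 55.1, 38.6, 40.5 and 36.2 in Il10-/- Tnfr1-/-. Of the Il10-/- values 3 lay below every double-deficient library and 2 did not (log2 fold change 0.33, SE 0.21, adjusted p = 0.541, limma). Abca1, the efflux pump that loads apolipoprotein A-I, was low throughout, at 0.909, 1.01, 0.728, 0.726 and 0.283 in Il10-/- and 1.44, 1.57, 1.93, 1.64, 0.649 and 0.632 in Il10-/- Tnfr1-/-. Replicates 1 to 4 of the second group lay above all Il10-/- libraries and replicates 5 and 6 did not (log2 fold change 0.53, SE 0.28, adjusted p = 0.536, limma). Npc1l1, the uptake protein, was 0.0123, 2.00, 1.31, 0.457 and 1.54 in Il10-/- and 2.93, 2.48, 0.162, 2.23, 0.875 and 0.0390 in Il10-/- Tnfr1-/-. It was nearly unlisted in Il10-/- replicate 1 and Il10-/- Tnfr1-/- replicate 6, the libraries with the most Hmgcs1 (log2 fold change 0.19, SE 0.58, adjusted p = 0.886, limma).

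The sterol exporter pair Abcg5 and Abcg8 did not pass the filter and was not tested. Both were highest in Il10-/- replicate 1, at 5.25 and 2.35, and lowest in Il10-/- Tnfr1-/- replicate 6, at 0 and 0.0300. Npc1, the lysosomal membrane exporter, lay between 5.51 and 8.001 in 10 libraries and reached 17.3 in Il10-/- Tnfr1-/- replicate 6. Npc2, its soluble lysosomal partner, ran from 49.7 in that same library to 136 in Il10-/- replicate 6.

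One library weighed on the genotype comparison more than the others. Without Il10-/- replicate 1, 8 of 28 sterol genes had an unadjusted limma p under 0.05, all higher in Il10-/- Tnfr1-/-, against 17.9% of all genes in that same fit. They were Hmgcs1, Idi1, Lss, Nsdhl, Hsd17b7, Sc5d, Srebf2 and Stard4. The log2 fold change became 0.93 (SE 0.31) for Hmgcs1 and 0.90 (SE 0.23) for Idi1, and the smallest adjusted p of the sterol genes was 0.252 (limma), so none was called. Library names begin with 4 different digits, whose meaning the labels do not give, and only names beginning with 1 occur in both genotypes. Within those 3 Il10-/- and 2 Il10-/- Tnfr1-/- libraries the median log2 fold change of the sterol genes was -0.26, and Hmgcs1 was at -0.27, opposite in sign to the comparison of all libraries. There, 9 of 30 did not overlap, against 14.6% of all genes: Abca1 and Npc1l1 were higher in Il10-/- Tnfr1-/- and Acat2, Fdps, Insig1, Msmo1, Pmvk, Srebf1 and Tm7sf2 lower, with adjusted p near 1.00 by limma. With that digit as a covariate in the fit of all libraries the median was the same, -0.26. Only names beginning with 1 inform the genotype difference in that fit, so it is not a separate result.

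Many enzymes varied together across libraries. After centring log2 values within genotype, the 153 pairs among the 18 enzymes had a median Pearson r of 0.50 over 11 libraries, against 0.03 for all pairs of tested genes. Of the enzyme pairs 49.7% exceeded 0.5, against 18.0% of all pairs, and 22 of 153 were below 0. The closest pair was Sqle with Cyp51, at r = 0.98. The SD within genotype on the log2 scale had a median of 0.52 over the enzymes and 0.42 over all tested genes. These correlations describe 11 libraries that share tissue make-up and scaling, and genes are not independent of each other. With smooth muscle and epithelial scores regressed out the enzyme median was 0.58, and without Il10-/- replicate 1 it was 0.42.

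**Figure D3:**
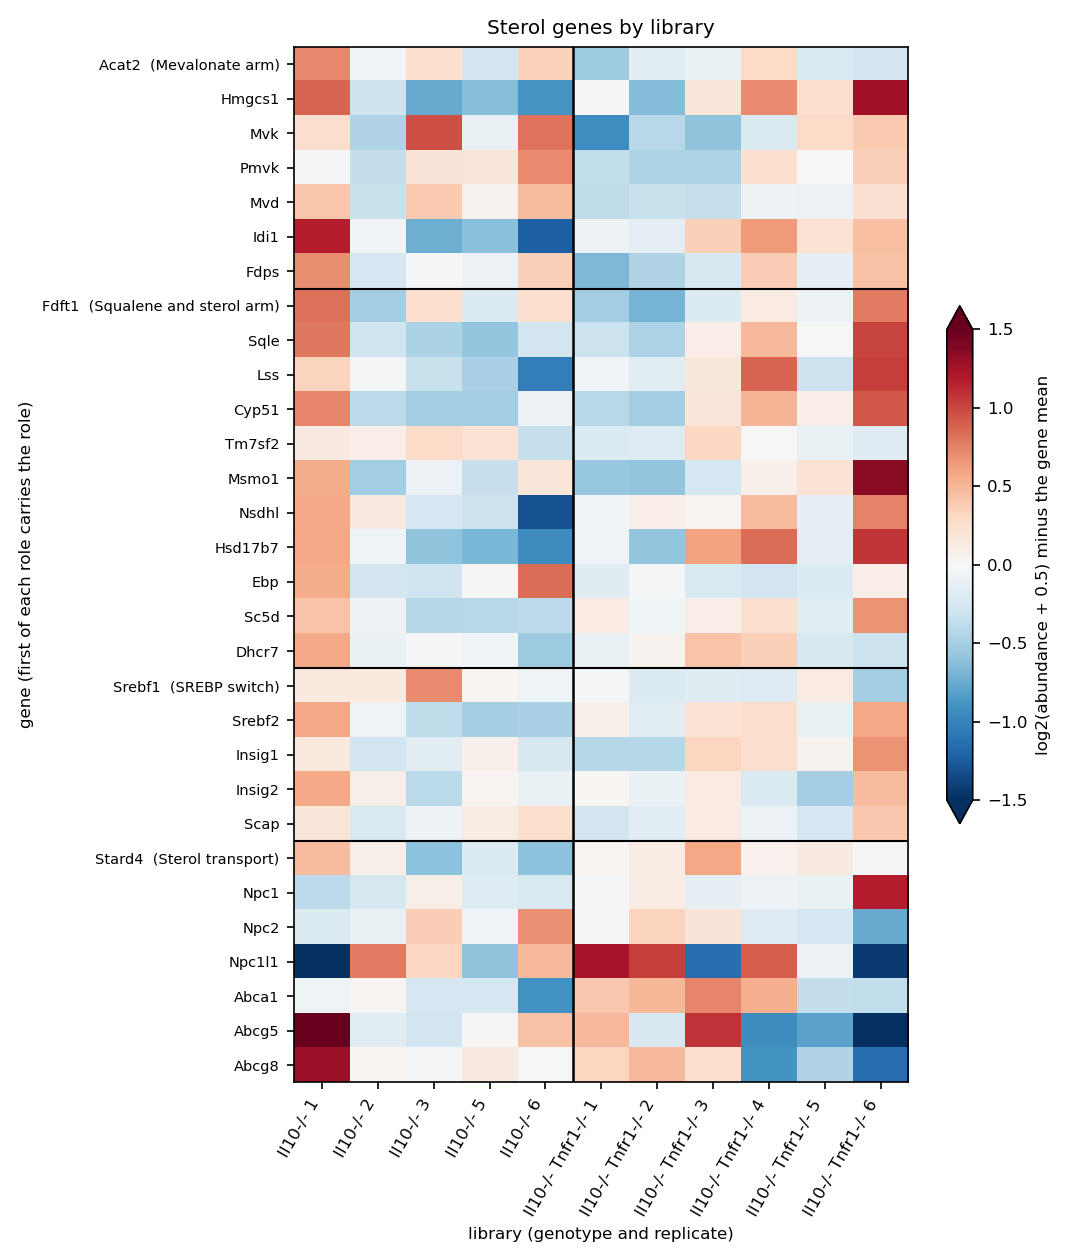
Log2(abundance + 0.5) of the 30 sterol genes (rows, grouped by role) in the 11 libraries (columns), minus each gene's mean over libraries; red is above the mean and blue below, and colours saturate at 1.5. Il10-/- replicate 1 and Il10-/- Tnfr1-/- replicate 6 are red for most enzymes and blue for Npc1l1.

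The same few libraries were high for most enzymes. Il10-/- replicate 1 and Il10-/- Tnfr1-/- replicate 6 were each among the top 3 libraries for 14 of 18 enzymes, and Il10-/- Tnfr1-/- replicate 4 was for 12. Il10-/- Tnfr1-/- replicate 6 was highest for 8 enzymes and Il10-/- replicate 1 for 5. Il10-/- replicate 6 was lowest for 7 enzymes, among them Hmgcs1, Idi1, Lss, Nsdhl and Hsd17b7, yet highest for 3, Pmvk, Mvd and Ebp. High and low sterol libraries thus occurred in both genotypes.

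By gene sums the enzymes followed at least 2 patterns. Hmgcs1 went with Sqle (r = 0.95), Hsd17b7 (0.93), Cyp51 (0.91) and Sc5d (0.90), and Sc5d with Srebf2 at 0.97. Mvk, Pmvk and Mvd went with each other (Mvk and Mvd at 0.88), while Mvk and Hmgcs1, with 1 step between them in the pathway, were at 0.16. The patterns were not separate groups. Mvd also went with Fdft1 (0.89), Msmo1 (0.83) and Fdps (0.79), which in turn went with Cyp51 (0.89, 0.87 and 0.93). Mean r with the other enzymes depended on the transcripts counted, though it does not measure how far these patterns are apart. With principal transcripts only, mean r with the other enzymes rose from 0.25 to 0.42 for Mvk and from 0.24 to 0.44 for Pmvk. For Ebp it rose from 0.20 to 0.40, and for Mvd it went from 0.427 to 0.375. Fdft1 and Msmo1 stood at 0.94, and the enzyme with the lowest mean r with the other enzymes was Tm7sf2, at 0.02. The sum of Srebf1 ran apart from that of Srebf2 (-0.28), but only 27.6% of the Srebf1 sum was in its principal transcript. Their r with principal transcripts only is not given. Of the transport genes, the sums of Npc2 (-0.81) and Npc1l1 (-0.65) ran opposite to Hmgcs1 and Stard4 ran with it (0.49). Of the Npc2 sum 51.0% was a retained-intron transcript, at 102 in Il10-/- replicate 6, the library with the least Hmgcs1. Npc1l1 was low, from 0.0123 to 2.93, so its r depends on values near 0. The transport genes had a median r of -0.33 among themselves.

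**Figure D4:**
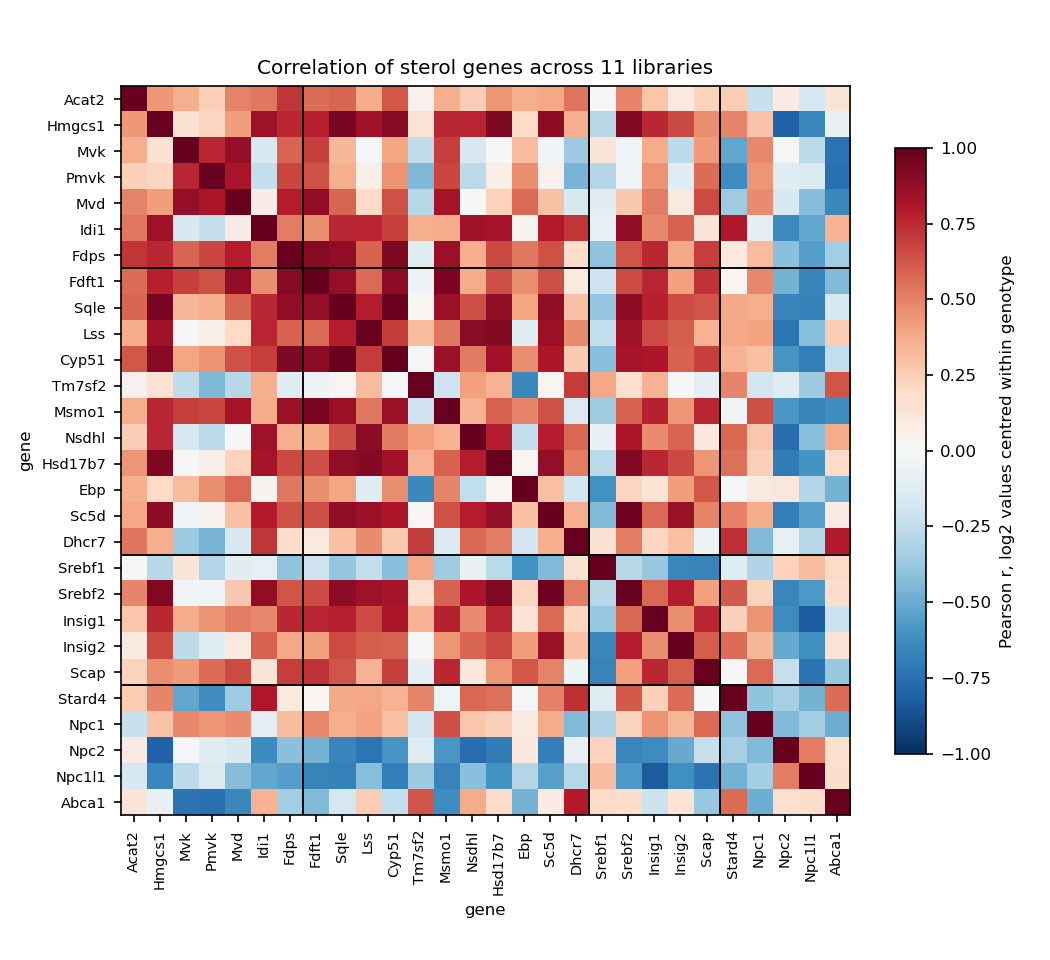
Pearson r between the 28 tested sterol genes (both axes, in pathway order, lines between roles) over 11 libraries, from log2 values centred within genotype. Red blocks join Hmgcs1 with Sqle, Cyp51, Hsd17b7 and Srebf2, whereas Npc2 and Npc1l1 are blue against most enzymes.

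In all, 23 pairs of pathway neighbours and partners were tested without centring, with 100000 permutations and Benjamini-Hochberg adjustment over the pairs. Srebf2 and Hmgcs1 had r = 0.94 (adjusted permutation p = 0.00069) and rho = 0.89 (adjusted permutation p = 0.0054), and r was 0.88 without the 2 libraries farthest from the median of Srebf2. Fdps and Fdft1, the steps on either side of farnesyl diphosphate, had r = 0.91 (adjusted permutation p = 0.00115) and rho = 0.91 (adjusted permutation p = 0.0054). Nsdhl with Hsd17b7 and Pmvk with Mvd each had r = 0.83 (adjusted permutation p = 0.00245 and 0.0127) and rho of 0.855 and 0.755 (adjusted permutation p = 0.0107 and 0.0379). Sqle with Lss, Mvk with Pmvk and Lss with Cyp51 passed by both measures too, with r of 0.80, 0.79 and 0.72. All pairs used gene sums, of which principal transcripts held only 45.66% for Mvk, 52.63% for Pmvk and 23.25% for Lss. Insig1 with Hmgcs1 (r = 0.77, adjusted permutation p = 0.0209) and Fdft1 with Sqle (r = 0.75, adjusted permutation p = 0.0233) passed by Pearson's r only, with adjusted permutation p of 0.0885 and 0.168 for rho. For Fdft1 and Sqle r was 0.31 without the 2 libraries farthest from the median of Fdft1, so the uncentred relation rests on them. Centred within genotype, the same pair had r = 0.88, 0.63 without 2 libraries, and passed by rho as well (adjusted permutation p = 0.0299). By rho, centring lost Sqle with Lss (adjusted permutation p = 0.161) and Lss with Cyp51 (adjusted permutation p = 0.243, and r = 0.34 without 2 libraries). The remaining 14 pairs did not pass, among them Srebf1 with Insig1 (r = -0.45) and Npc1 with Npc2 (r = -0.53).

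Outside the lists, the tested genes of highest mean r with the 18 enzymes over the 11 libraries included Dhrs7 (0.66), B4galt6 (0.66), Tmem43 (0.65), Gpsm2 (0.64) and Lamtor3 (0.64). Ankrd50, Gtse1, Triobp and Pmpca followed at 0.63 to 0.64. All of these 9 were higher in Il10-/- replicate 1 and Il10-/- Tnfr1-/- replicate 6 than in Il10-/- replicates 2 and 5. The enzymes were high and low in the same libraries, and the 9 were picked for their r with the enzymes. That order therefore largely follows from the choice.

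The sterol genes differed in which transcripts carried their abundance. In 9 of the 30 genes under 60% of the abundance was in transcripts that the table marks as principal, meaning the isoform annotated as the main one. For Ebp the principal transcript held 10.2% of the abundance and a retained-intron transcript, Ebp-202, held 58.3%. For Npc2 a retained-intron transcript held 51.0%, and for Msmo1 the processed transcript Msmo1-206 held 55.4%. For Lss the principal transcript held 23.2%, and taken alone its log2 fold change was 1.29 (exact permutation p = 0.102, unadjusted). How kallisto divides reads among overlapping transcripts is an estimate, so these shares are uncertain.

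With principal transcripts only, a choice made after seeing the data, the sign of the genotype difference turned for 6 genes. Srebf1 went from -0.36 to 0.51, Pmvk from -0.26 to 0.29, Ebp from -0.31 to 0.12, Npc2 from -0.26 to 0.08, Insig2 from -0.07 to 0.17 and Dhcr7 from 0.06 to -0.02, all on the log2 scale and none called. For Srebf1 the principal transcript measured 17.1, 12.5, 3.69, 6.53 and 2.01 in Il10-/- and 13.2, 7.21, 16.2, 14.8, 6.33 and 4.81 in Il10-/- Tnfr1-/-. Other Srebf1 transcripts measured 20.2, 24.8, 51.5, 27.9 and 29.97 in Il10-/- and 19.97, 21.9, 13.5, 14.6, 30.4 and 18.7 in Il10-/- Tnfr1-/-. The high Srebf1 value of Il10-/- replicate 3 thus came from non-principal transcripts. For Mvk the principal transcript spanned only 6.55 to 14.0, while other transcripts spanned 4.03 to 28.2, with the 2 highest in Il10-/- replicates 3 and 6. Those 2 libraries also had the lowest share of all abundance in principal transcripts, 54.9% and 56.7%, against 58.7% to 66.1% in the other 9, and the part of that share in the gene sums was not tested. Hmgcs1 and Sqle were 95.5% and 98.5% principal, and the enzyme median r was 0.56 with principal transcripts only. Mean r with the other enzymes was then higher for Mvk (0.42 against 0.25), Pmvk (0.44 against 0.24) and Ebp (0.40 against 0.20). It was lower for Tm7sf2 (-0.18 against 0.02) and Fdft1 (0.54 against 0.61).

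**Figure D5:**
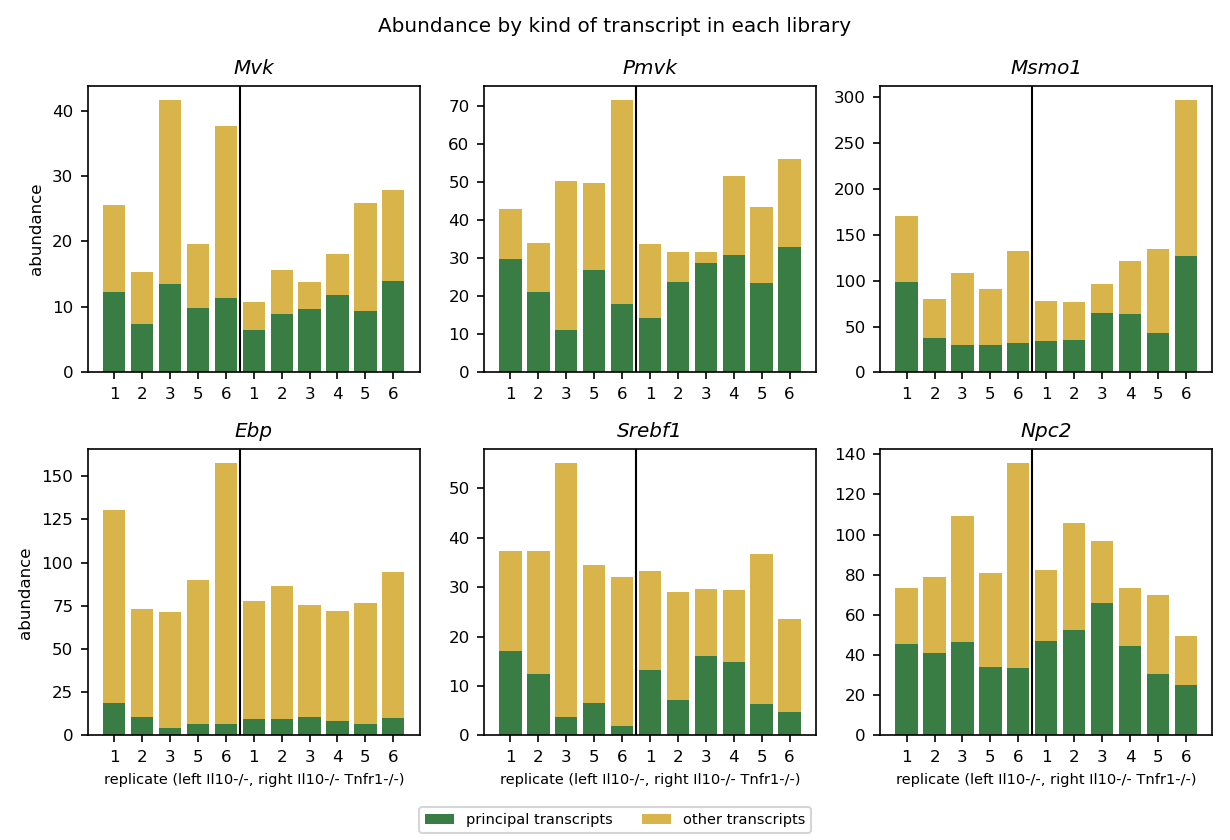
Abundance (y axis, linear from 0) of 6 sterol genes in each library (x axis, replicate number; Il10-/- left and Il10-/- Tnfr1-/- right of the line), stacked as principal and other transcripts. In Il10-/- replicates 3 and 6 most of the Mvk, Pmvk and Srebf1 abundance is in other transcripts. This is not particular to them: it holds for Srebf1 in all libraries but Il10-/- Tnfr1-/- replicates 3 and 4. For Mvk and Pmvk it holds in some further libraries, and for Ebp in every library.

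The authors' deposited table gives its own test per transcript. Of 167 sterol transcripts in the authors' deposited table, 92 have a q-value, the smallest q is 0.684 and 5 have p under 0.05, against 6.83% of the 43192 transcripts with a q-value. Among them in the authors' deposited table are the principal transcript of Abca1 (log2 fold change 0.83, p = 0.0416) and Ebp-202 (log2 fold change -0.71, p = 0.0414). The authors' fold changes are not on the scale used here, where that Abca1 transcript was at 0.54. Their test may also have used another set of libraries.

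Neighbouring pathway lists were read from the same fit, and no gene of them was called. Among all 13561 tested genes 7521 had the higher mean in Il10-/- Tnfr1-/-, and 8.34% had an unadjusted limma p under 0.05. Of 14 tested further genes of sterol synthesis and uptake, 8 had the higher mean in Il10-/- Tnfr1-/- and 6 the lower, and 1 had an unadjusted limma p under 0.05. That gene was Ggps1, which makes geranylgeranyl diphosphate from the same precursor. Ggps1 measured 11.6, 14.3, 16.5, 11.1 and 8.39 in Il10-/- and 17.2, 18.4, 18.7, 18.2, 16.8 and 19.5 in Il10-/- Tnfr1-/-. Its groups did not overlap, as for 0.575% of all genes, with a log2 fold change of 0.57 (SE 0.16, adjusted p = 0.536, limma). The other gene of small p was Tmem97, a sterol-regulated membrane protein, at -0.30 (SE 0.16, adjusted p = 0.536, limma).

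All 10 genes of SREBP processing and degradation had the higher mean log2 value in Il10-/- Tnfr1-/-, against 7521 of all 13561 tested genes. For Rnf145 the difference was 0.04, with linear means of 22.3 in Il10-/- and 22.1 in Il10-/- Tnfr1-/-. The 10 had a median log2 fold change of 0.30, against 0.05 for all genes. Of them 2 had an unadjusted limma p under 0.05, against 8.34% of all genes. The smallest p was that of Sec23a, a coat protein of vesicles leaving the endoplasmic reticulum, at 0.54 (SE 0.21). Of 13 tested fatty acid genes 10 had the higher mean, and the smallest p-values were those of Acsl3, an acyl-CoA synthetase, at 0.78 (SE 0.26) and Elovl5, an elongase, at 0.41 (SE 0.23). Of 13 LXR and efflux genes 7 had the higher mean, with Apoe at 0.92 (SE 0.37) and Mylip, a ubiquitin ligase induced by LXR, at 0.58 (SE 0.28). Apoe was highest in Il10-/- Tnfr1-/- replicate 3 (245) and Il10-/- replicate 3 (220), libraries that also had high sums of smooth muscle markers (8010 and 3505), whose part was not tested. Of 16 genes of storage, lysosome and lipoproteins 11 had the higher mean, with Apoa4, a lipoprotein component, at 1.46 (SE 0.43) and Cd36, a fatty acid transporter, at 1.34 (SE 0.52). Each of these 7 genes had an adjusted limma p of 0.536.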

How the data were processed

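Stranded mRNA libraries of colon RNA were sequenced as single-end reads, per the labels' protocols. CASAVA, kallisto, sleuth and mm10 are named in the submitters' processing notes. No source names their versions or settings. The deposited table holds a signal per transcript and library: abundance scaled for length and between libraries, not counts. It also holds the authors' p-value, q-value and log2 fold change per transcript, which the authors deposited. Of 12 labelled samples 11 have a column matched by title; 1 Il10-/- sample has none here, and 1 column that matches no title was not used.

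Repeated transcript rows (866 of 114059) were dropped and abundances summed per Ensembl gene. Genes over 1 in at least 5 libraries were tested with limma 3.58.1 (trend, robust; R 4.3.3) on log2(abundance + 0.5), two-sided, with Benjamini-Hochberg adjustment at 0.05. The fit was tested on simulated data. Single genes were also put through an exact permutation test over 462 assignments of libraries, whose smallest p is 0.00216. Gene pairs were tested in Python 3.11.15 with 100000 permutations. Replicate numbers follow the order of the labels and pair nothing. The number of libraries limits the precision, and read depth is unknown.

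The genes, lists and tests were chosen with earlier results of these data known. Shown library by library are Hmgcs1, Idi1, Sqle, Srebf2, Insig1, Abca1 and Npc1l1, the 2 genes of smallest p in each role, and any whose genotypes do not overlap. Named from each pathway list are the 2 genes of smallest p, and outside the lists the 10 genes of highest mean r with the enzymes; 1 gene of each of these choices is not reported here. While the promoters were explored, 5 other spellings of the sterol element were also looked at, and they are not reported. Alternatives covered the pseudocount, filter, scaling, transcript choice, covariates and leaving out each library.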

Additional observations from a re-analysis of the deposited data

Results flagged for a closer look

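In 10 of the 60 groups examined (30 genes in each genotype) 1 library stood far from the rest of its genotype. The rule set the gap to the next library against the range, on abundances that were not log-transformed. Chance meets it in about 1 in 20 groups only where values are normally distributed. Skewed abundances can meet it more often on the high side, and it was not applied on the log2 scale. Because these genes vary together, the 10 are not independent. Of these, 5 are high values of Il10-/- replicate 1: Hmgcs1 at 173 (next library 76.0), Sqle at 72.3 (34.2), Cyp51 at 86.7 (48.9), Abcg5 at 5.25 (1.51) and Abcg8 at 2.35 (0.778). Il10-/- Tnfr1-/- replicate 6 was high for Msmo1, at 298 (134), and Npc1, at 17.3 (8.001). Il10-/- Tnfr1-/- replicate 3 was high for Tm7sf2, at 31.0 (24.8), and Stard4, at 55.1 (40.5). Il10-/- replicate 3 was high for Srebf1, at 55.2 (37.4). No low value met the rule.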

How the results depend on the processing

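Over 28 alternative settings no sterol gene was called in any; among all genes 1 was called with quantile normalization and 2 without Il10-/- replicate 2. The number of sterol genes at unadjusted p under 0.05 was 2 of 29 with median-ratio size factors (8.92% of all genes in that fit), 1 of 29 with quantile normalization (9.62%), 2 of 28 with the smooth muscle score (4.54%) and 2 of 28 with the epithelium score (9.65%) as covariates, and 0 to 8 when single libraries were left out (3.53% to 17.9% of all genes). The number without overlap was 9 of 30 among names starting with 1, against 14.6% of all genes in that fit. It was 0 to 1 when single libraries were left out, against 0.655% to 2.45% of all genes. The median log2 fold change was -0.26 among names starting with 1 and with the first digit as a covariate, 0.00888 with median-ratio size factors, 0.26 with equal totals, 0.24 with principal transcripts, 0.19 with the transcript of highest mean, 0.07 with no filter, 0.08 with either other filter and 0.06 with the Y-linked covariate. It was 0.03 (without Il10-/- Tnfr1-/- replicate 4) to 0.22 (without Il10-/- replicate 1) when single libraries were left out. Among names starting with 1 and with the digit covariate Hmgcs1 (-0.27), Idi1 (-0.24), Sqle (-0.40), Srebf2 (-0.0891), Insig1 (-0.32), Lss (-0.0907) and Hsd17b7 (-0.29) turned negative. Both settings draw the genotype difference from the same libraries, so their equal estimates are not separate results. Srebf1 turned to 0.51 with principal transcripts only, and Npc1l1 ran from -0.16 to 0.50 when single libraries were left out, at -0.16 without Il10-/- replicate 1 and -0.04 without Il10-/- Tnfr1-/- replicate 1. Equal totals moved the median of all genes from 0.05 to 0.19. The enzymes' median r was 0.65 with equal totals, 0.41 with quantile normalization, 0.38 without centring, 0.41 by Spearman, 0.58 with tissue scores regressed out, 0.40 with the transcript of highest mean, 0.56 with principal transcripts, and 0.42 to 0.60 when single libraries were left out. Centred within genotype, r turned to 0.16 for Hmgcs1 and Mvk, 0.076 for Mvd and Idi1 and 0.019 for Hsd17b7 and Ebp. The cause of these shifts was not tested. Among the 13 genes shown library by library, 342 of the other values kept their direction and side of the threshold. Principal transcripts and the Y-linked covariate were chosen after seeing the data. No paired analysis was possible because the labels give no replicate numbers.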

Other observations

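After the data were seen, Hmgcs1 was set against 11 lists of marker or process genes and the share of abundance in principal transcripts, over 11 libraries and with 100000 permutations. None of the 12 relations passed after Benjamini-Hochberg adjustment. The highest were with erythroid markers (r = 0.71, permutation p = 0.0138, adjusted p = 0.0935; rho = 0.63; r = 0.75 without the 2 libraries farthest from the median of Hmgcs1) and with the principal share (r = 0.71, permutation p = 0.0156, adjusted p = 0.0935; rho = 0.75; r = 0.65 without 2 libraries). Hba-a1, an erythroid haemoglobin gene, was 178 in Il10-/- Tnfr1-/- replicate 6 and 53.0 in Il10-/- replicate 1, both libraries of high Hmgcs1. The sum of erythroid markers ran from 96.5 to 658 in Il10-/- Tnfr1-/-, highest in replicate 6. In Il10-/- it ran from 72.6 to 240, and replicate 1, at 160, lay below replicates 2 and 3. Il10-/- replicate 1 was thus high for Hmgcs1 and not for erythroid markers. Epithelial markers stood at r = 0.05 and smooth muscle markers at r = 0.36, but at -0.74 and 0.74 without the 2 libraries. Without them neutrophil markers moved from -0.38 to -0.86, fibroblast markers from 0.37 to 0.79 and adipocyte markers from 0.31 to 0.78, so these relations depend on those libraries.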
